A study of Mus musculus with 6 samples.

Results

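The integrin and laminin chains of the mouse aortic valve were taken as every protein-coding gene entry whose symbol is an integrin alpha chain, an integrin beta chain from 1 to 8, or a laminin alpha, beta or gamma chain. This gave 38 gene entries of the 46983 in the file, with 37 different symbols, since Itgam is listed under 2 Ensembl genes. Of these entries, 27 were integrin chains and 11 were laminin chains. The study sequenced RNA of aortic valves isolated from wild type C57BL/6J mice, either 2 days after birth (PND2) or 4 months old. Both ages had 3 libraries, each made from the pooled valves of 5 to 6 animals, and the labels name no treatment. The level of a gene is given as RPKM, the reads on its exons scaled by exonic length and by the size of the library, so levels may be compared between genes. Library totals, in the unit that the authors' RPKM divides by and recovered from the RPKM values and exon lengths, were 38994657, 30518001 and 29260736 at PND2 and 37350916, 23810507 and 28943701 at 4 months.

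Laminins are the trimeric glycoproteins that polymerize into the network of the basement membrane, the sheet of matrix under endothelium and around muscle cells. Each laminin joins an alpha, a beta and a gamma chain, and the alpha chain carries the main binding sites for cells. Integrins are the heterodimeric receptors that tie the matrix to the cytoskeleton, and the pairing of an alpha with a beta chain sets which ligand is bound. In the aortic valve these molecules lie between the endothelial cells, the interstitial cells and the layered matrix of the leaflet.

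Among the valve interstitial markers the matrix genes Col1a1, Col3a1, Dcn, Lum and Postn were at 328 RPKM or more in every library. They were led on average by Col3a1 at PND2 and by Dcn at 4 months. Vcan, another matrix gene, was at 91.7 to 137 RPKM at PND2 and at 33.3 to 41.0 RPKM at 4 months. Sox9, Nfatc4 and Pdgfra were at 7.54 to 50.7 RPKM. Genes known from muscle were abundant as well. Actc1, an actin of heart muscle, lay at 5605, 6320 and 6944 RPKM at PND2 and at 1175, 2529 and 1673 RPKM at 4 months. Acta2, the smooth muscle actin, rose from 4138, 4852 and 5040 RPKM to 16006, 9422 and 11279 RPKM. The libraries therefore held transcripts known from muscle as well as from the leaflet, in amounts that differed between the ages. At 4 months replicate 2 stood apart in adipocyte transcripts. The 7 adipocyte markers, led by Cfd at 4 months and by Fabp4 at PND2, summed to 1422 RPKM in it, against 352 and 335 RPKM in the other 4 months libraries and 69.2 to 152 RPKM at PND2. Its 5 B cell markers summed to 4.32 RPKM, against 0.432 and 0.748 RPKM in the other 4 months libraries and 1.48 to 3.00 RPKM at PND2. In such bulk samples, fewer cells of a type and less RNA per cell cannot be told apart.

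Laminin and integrin chains moved in opposite directions for the most part. A gene was called changed when its adjusted p in limma, over all 25903 genes tested, was under 0.05. All 38 entries were tested, and 28 of them (73.7%) were called, against 35.8% of all genes tested. Among the 27 integrin entries 16 were higher at 4 months and 3 were lower, while 14.7% of all genes tested were higher and 21.1% were lower. A per-gene unequal-variance test called 10 integrin entries higher, and 3408 genes in all where limma called 9273. Among the 11 laminin chains 2 were higher and 7 were lower. The median log2 fold change, 4 months over PND2, was 0.98 over the integrin entries and −1.10 over the laminin chains, and it was −0.14 over all genes tested. A change of more than 2-fold with the same adjusted p was found for 24 entries, against 17.2% of all genes tested. These were 13 integrin entries that were higher and 3 that were lower, and 2 laminin chains that were higher and 6 that were lower. With a pseudocount of 1 in place of 0.1, 16 entries met this rule and the lower laminin chains fell to 3, since Lama1, Lama3, Lamb3, Itga2, Itgae, Itgb6, Itga3 and Itgb8 then stayed under 2-fold, with their adjusted p still under 0.05. The share of all genes tested that met this rule was 8.72% for higher and 8.47% for lower. The RPKM values of the 2 ages did not overlap for 32 of the 38 entries, against 50.0% of all genes tested. Itgb6 and Itgae passed the filter on low values only through the 4 months libraries, and Lama1 only through the PND2 libraries, so these 3 had to differ. Without 4 months replicate 2, the calls were 14 higher and 2 lower for the integrin entries, and 2 higher and 7 lower for the laminin chains. Itgb6 and Itgae then failed the filter, and Itga2 missed the threshold. Fold changes are on the scale of log2(RPKM + 0.1), which understates the change of low genes.

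**Figure D1:**
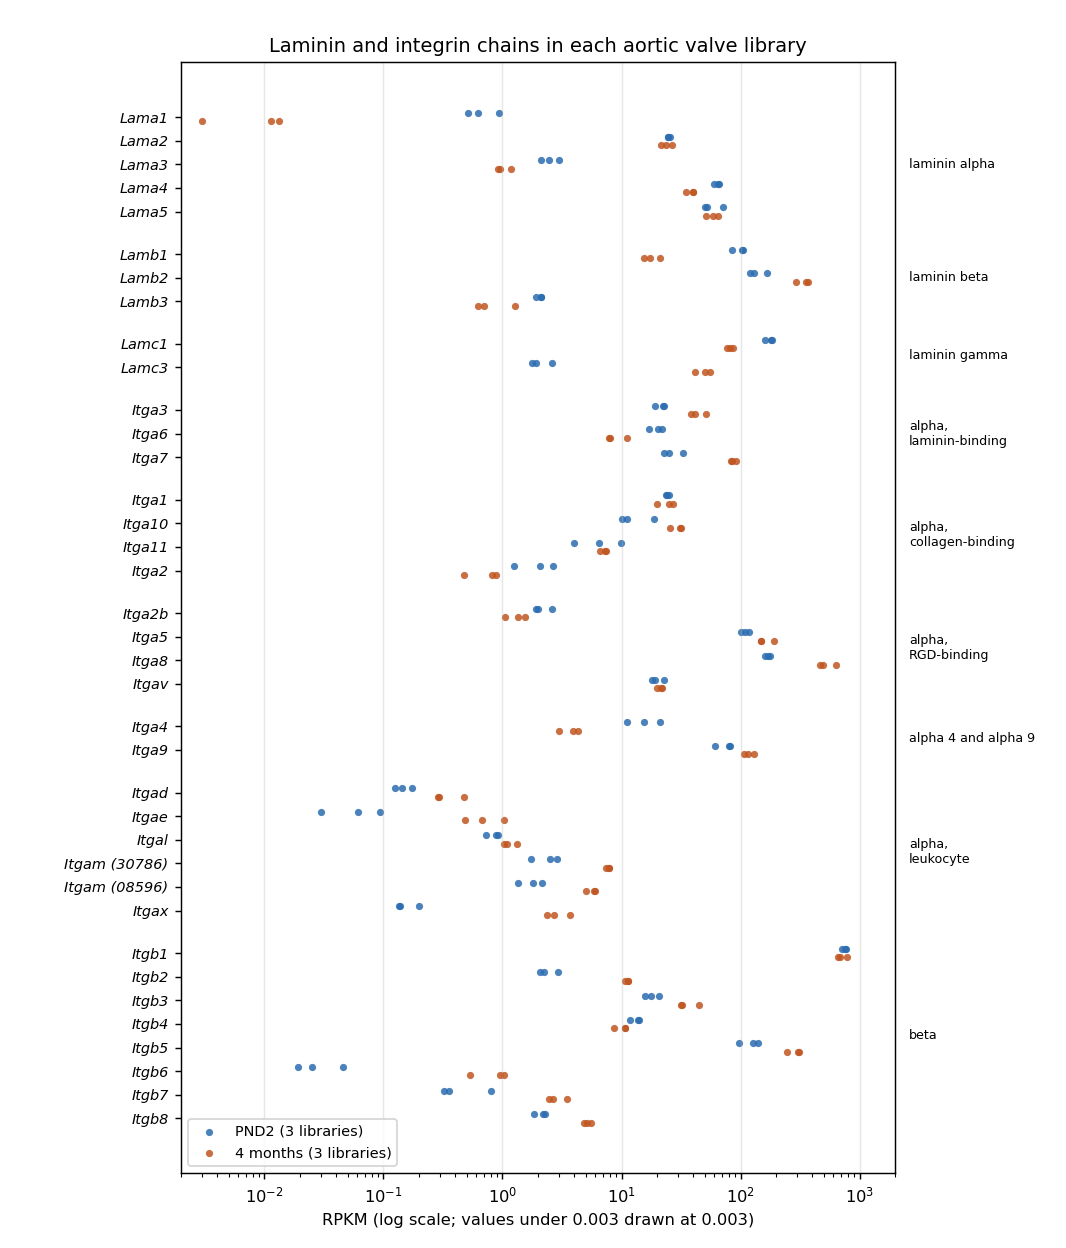
Level of 37 of the 38 laminin and integrin entries in each library, in RPKM on a log scale, with 1 point per library (blue, PND2; orange, 4 months) and chains grouped by class; the 2 Itgam entries carry the last digits of their Ensembl IDs. Lamc3 and Itgax show the widest gaps upward among chains above 1 RPKM at 4 months, and Itgb1 is the most abundant chain at both ages with overlapping points.

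**Figure D2:**
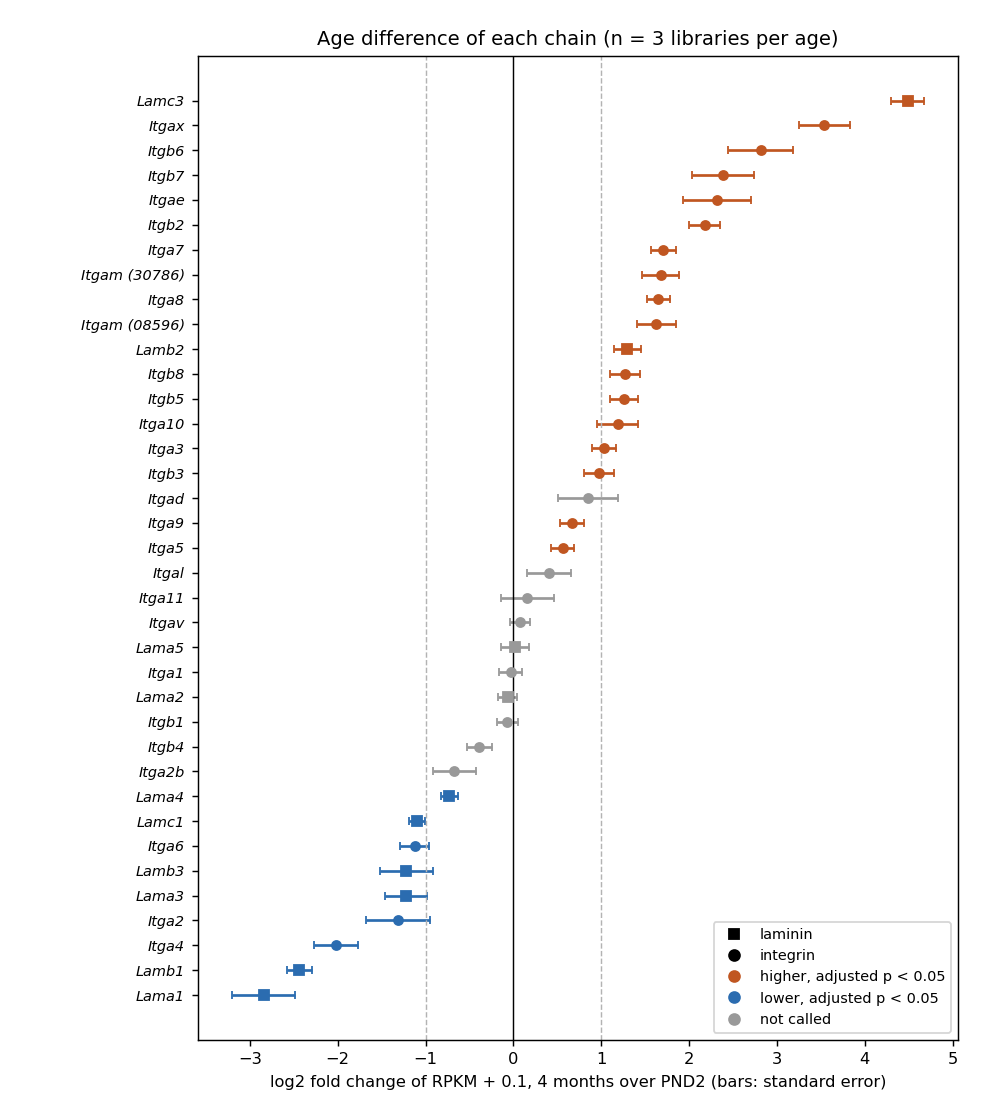
Log2 fold change of 37 of the 38 entries, 4 months over PND2, on log2(RPKM + 0.1), with bars for the standard error of the limma fit; orange and blue mark chains with an adjusted p under 0.05, and squares mark laminins. The laminin chains drawn, other than Lamc3 and Lamb2, lie at or below 0.02, and 16 integrin entries are called above 0.

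Of the laminin chains, the gamma chain Lamc3 rose furthest. Lamc3 (ENSMUSG00000026840, mm10, chr2:31887291-31946539, plus strand), a gamma chain found in fewer tissues than Lamc1, lay at 2.61, 1.79 and 1.92 RPKM at PND2 and at 55.8, 41.1 and 50.4 RPKM at 4 months. Its mean was 2.11 ± 0.445 RPKM (SD, n = 3) at PND2 and 49.1 ± 7.45 RPKM (SD, n = 3) at 4 months, a 23.3-fold rise with no overlap. The log2 fold change was 4.49 ± 0.18 (SE), with an adjusted p of 2.1e-05. In reads this was 621, 332 and 342 at PND2 against 12701, 5960 and 8888 at 4 months. It moved Lamc3 from place 27 to place 10 in the order of levels among the 38 entries. An antisense gene, Gm13441, shares 6.27% of its exonic bases, and exons free of that overlap gave a log2 fold change of 4.55.

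Lamc1 (chr1:153218922-153332786, minus strand), the gamma chain of most laminins, fell. It lay at 161, 182 and 180 RPKM at PND2 and at 86.2, 82.2 and 76.2 RPKM at 4 months. All 3 PND2 libraries were above all 3 libraries at 4 months, and the level at PND2 was 2.14-fold that at 4 months (log2 fold change −1.10 ± 0.09, adjusted p 0.000274).

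The 2 main beta chains moved in opposite directions, with Lamb2 above Lamb1 in every library of both ages. Lamb1 (ENSMUSG00000002900, mm10, chr12:31265234-31329644, plus strand), the beta chain of many embryonic laminins, lay at 84.3, 104 and 103 RPKM at PND2 and at 17.4, 20.9 and 15.5 RPKM at 4 months. Its level at PND2 was 5.41-fold that at 4 months, with a log2 fold change of −2.43 ± 0.14 and an adjusted p of 5.92e-05. Lamb2 (chr9:108479736-108490530, plus strand), a beta chain known from the basement membranes of muscle, vessels and kidney, lay at 121, 165 and 129 RPKM at PND2 and at 365, 295 and 355 RPKM at 4 months. The rise was 2.45-fold, with a log2 fold change of 1.30 ± 0.15 and an adjusted p of 0.000838. Neither beta chain had overlapping ages. Lamb3, a beta chain of epithelial laminin, was at 1.92, 2.11 and 2.12 RPKM at PND2 and at 0.628, 1.26 and 0.695 RPKM at 4 months. Its log2 fold change was −1.22 ± 0.30 with an adjusted p of 0.0184. The call was lost without PND2 replicate 2 or 3 (log2 fold changes of −1.20 and −1.19, adjusted p 0.0535 and 0.0573) and without 4 months replicate 1 or 3 (−1.04 and −1.11, adjusted p 0.0503 and 0.0608), and under a per-gene unequal-variance test (adjusted p 0.133).

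The alpha chains divided into a pair with little difference and 3 chains that fell. Lama2, the main chain of muscle laminin, was at 24.9 ± 0.381 RPKM at PND2 and 23.9 ± 2.61 RPKM at 4 months (SD, n = 3), and the ages overlapped (log2 fold change −0.06 ± 0.11, adjusted p 0.682). Lama5, a chain of many adult laminins, was at 58.0 ± 11.9 and 58.1 ± 6.34 RPKM and overlapped as well (log2 fold change 0.02 ± 0.16, adjusted p 0.949). Lama4, a chain known from endothelial laminin, lay at 59.3, 66.2 and 64.1 RPKM at PND2 and at 39.7, 39.7 and 34.9 RPKM at 4 months. It fell without overlap by 0.73 on the log2 scale (SE 0.10, adjusted p 0.00143). Lama3, an alpha chain of epithelial laminin, lay at 2.97, 2.098 and 2.48 RPKM at PND2 and at 0.959, 1.18 and 0.910 RPKM at 4 months (log2 fold change −1.22 ± 0.24, adjusted p 0.00724). Lama3 and Lamb3 were thus both lower at 4 months, at mean levels under 3 RPKM at PND2. Lama1, the alpha chain of the early embryonic laminin, had 233, 272 and 144 reads at PND2 and 4, 3 and 0 reads at 4 months. Its PND2 mean was 0.694 ± 0.217 RPKM, the adjusted p was 0.00124, and no fold is given because the reads at 4 months were so few. Lama1 passed the filter on low values only through the PND2 libraries, so it had to differ.

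Summed over the 11 chains, laminin RPKM was 518, 629 and 567 at PND2 and 659, 558 and 616 at 4 months, and these sums overlapped. The make-up of each chain class differed more. Lamb1 held 40.8, 38.3 and 44.0% of the beta chain RPKM at PND2 and 4.54, 6.61 and 4.16% at 4 months. Lamb2 held 58.1 ± 2.90% at PND2 and 94.6 ± 1.44% at 4 months (SD, n = 3). Lamc1 held 93.2, 94.9 and 94.9% of the gamma chain RPKM at PND2 and 59.7, 65.4 and 59.2% at 4 months. Lamc3 took 1.52, 0.929 and 1.01% of it at PND2 and 38.7, 32.7 and 39.2% at 4 months. The shares of these 4 chains therefore moved by over 30 percentage points with no overlap between the ages, though Lamc1 moved by −28.6 points when levels were taken as the median RPKM over exons. Among alpha chains, Lama4 went from 42.5 ± 2.32% to 31.5 ± 2.36%, Lama5 from 38.6 ± 4.10% to 47.9 ± 3.19% and Lama2 from 16.8 ± 1.75% to 19.7 ± 1.03%. The Lama2 difference of 2.93 percentage points was 1.55 when levels were taken as the median RPKM over exons. Each of these 7 shares gave an exact 2-sided permutation p of 0.1, which is the smallest that 3 libraries against 3 can give, so none could pass 0.05. Shares within a class sum to 100% and are not independent of each other.

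**Figure D3:**
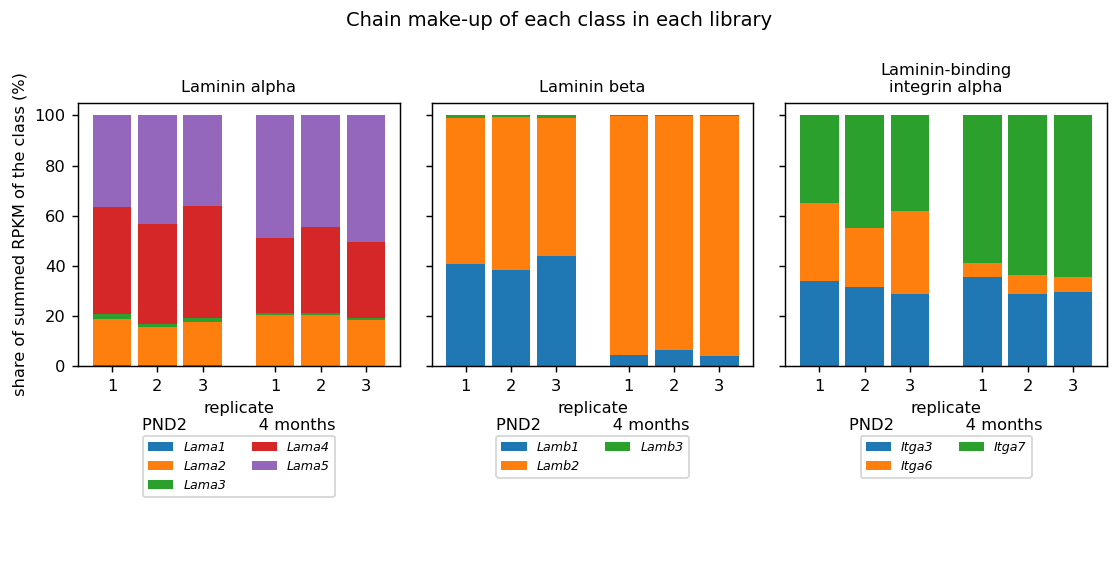
Share of each chain in the summed RPKM of its class, in percent, with 1 stacked bar per library for laminin alpha and beta chains and for the laminin-binding integrin alpha chains. At 4 months Lamb2 fills 93.0 to 95.6% of the beta bars, and Itga6 falls to under 8% of the integrin bars.

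Itgb1 (ENSMUSG00000025809, mm10, chr8:128685654-128733200, plus strand), the beta chain shared by most matrix-binding integrins, was the most abundant member at both ages. It lay at 768, 752 and 718 RPKM at PND2 and at 790, 682 and 662 RPKM at 4 months. The ages overlapped, and the gene was not called (log2 fold change −0.07 ± 0.12, adjusted p 0.678). Its exons, in contrast, included the only exon of the 38 entries that passed limma's test of exon use both without and with precision weights on the recovered reads. Exon use is the RPKM of an exon divided by the RPKM of its gene. Of 1194 member exons tested, 6 passed without weights and 4 with weights, against 1.31% and 0.562% of all 243348 exons tested, and 0.275% of all exons passed both.

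That exon (ENSMUSE00000786266, mm10, chr8:128726983-128727063, 81 bases) is the alternative exon that gives the beta 1D form, known from striated muscle. When it is spliced in, the reading frame ends in it after 72 coding bases and a stop codon. When it is skipped, the last exon is read and supplies 63 coding bases and its own stop codon, which is the common beta 1A form. Both coding ends are shown because they are what the exon choice exchanges. They were read from GENCODE M21 transcripts (GRCm38), plus strand, 5′ to 3′, with the stop codon in capitals. The first runs over chr8:128726983-128727057 and the second over chr8:128732023-128732088.
Itgb1 end with the 81-base exon: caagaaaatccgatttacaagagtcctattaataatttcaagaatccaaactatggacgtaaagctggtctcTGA
Itgb1 end without the 81-base exon: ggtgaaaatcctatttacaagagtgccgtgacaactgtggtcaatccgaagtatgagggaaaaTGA

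The 81-base exon was used less at 4 months. It held 446, 309 and 244 reads at PND2 and 91, 92 and 85 reads at 4 months. Its use was 0.184, 0.166 and 0.143 of the gene's RPKM at PND2 and 0.0381, 0.0699 and 0.0548 at 4 months. No library at 4 months reached the lowest PND2 value. Relative to the other Itgb1 exons its log2 change was −1.56, with an adjusted p of 1.33e-16, and −1.61 with weights, with an adjusted p of 1.02e-08. That test pools the spread over the exons of the gene, so these p-values do not measure the spread between libraries alone. An exact 2-sided permutation test of the exon's use over the 6 libraries gave a p of 0.1, the smallest that 3 libraries against 3 can give. Without any single library the log2 change ran from −1.77 to −1.32. Both values of exon use rest on reads over exonic bases, not on reads across splice junctions. Heart muscle transcripts also differed between the ages. Of 10 cardiomyocyte markers 5 were lower at 4 months, against 21.1% of all genes tested, and none was higher. The list, led by Actc1 at PND2 and by Myh6 at 4 months, summed to 17874, 19059 and 20615 RPKM at PND2 and to 7134, 10961 and 7146 RPKM at 4 months. None of these markers was at 0 at either age. Within PND2 the order of the libraries by this sum was the reverse of their order by exon use. At 4 months the library with the highest sum also had the highest exon use. The part of muscle content in the change of exon use was not tested.

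**Figure D4:**
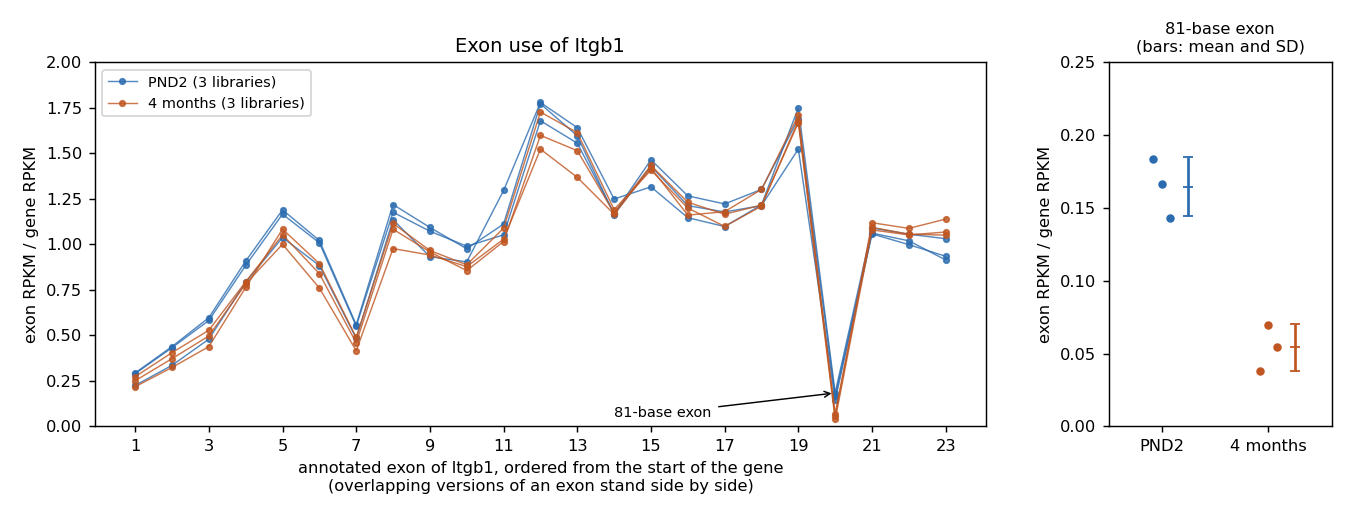
Left, use of each annotated Itgb1 exon (exon RPKM divided by gene RPKM) from the start of the gene to its end, with 1 line per library; right, use of the 81-base exon with mean and SD over 3 libraries per age. The lines of the 2 ages run together over most of the gene, and the 81-base exon lies at 0.143 to 0.184 at PND2 and at 0.0381 to 0.0699 at 4 months.

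The other beta chains that bind matrix rose or did not pass the test. Itgb5 (chr16:33829665-33949153, plus strand), which pairs with the alpha V chain to bind vitronectin, lay at 96.4, 141 and 126 RPKM at PND2 and at 309, 248 and 306 RPKM at 4 months. It rose 2.38-fold without overlap (log2 fold change 1.26 ± 0.16, adjusted p 0.00137). Itgb3, the partner of alpha V and of the platelet chain alpha IIb, was at 18.1 ± 2.47 RPKM and 36.02 ± 7.63 RPKM (SD, n = 3), and rose by 0.98 on the log2 scale (SE 0.17, adjusted p 0.00461). A per-gene unequal-variance test across all genes did not call Itgb3 (adjusted p 0.0641 over all genes). Itgb8, which with alpha V activates latent TGF-beta, lay at 2.27, 2.19 and 1.84 RPKM at PND2 and at 4.84, 5.16 and 5.55 RPKM at 4 months. The Itgb8 ages did not overlap, with a log2 fold change of 1.27 ± 0.17 and an adjusted p of 0.00178. Itgb6, an epithelial beta chain, had a mean of 0.0302 ± 0.0141 RPKM at PND2 and 0.841 ± 0.269 RPKM at 4 months, from 4 to 10 reads per PND2 library and 142 to 195 reads per 4 months library. Its log2 fold change was 2.81 ± 0.37 (adjusted p 0.00145), and it ranked last of the 38 entries at PND2. Itgb6 passed the filter on low values only through the 4 months libraries, so it had to differ. Itgb4, the beta chain of hemidesmosomes, was at 13.2 ± 1.28 and 10.1 ± 1.22 RPKM and did not pass (log2 fold change −0.39 ± 0.14, adjusted p 0.0681). As shares of the beta chain RPKM, Itgb1 held 82.6 ± 2.29% at PND2 and 66.8 ± 2.39% at 4 months, while Itgb5 held 13.4 ± 2.37% and 27.0 ± 2.39%.

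The 3 laminin-binding alpha chains, which all pair with beta 1, were each called. Itga7 (chr10:128933813-128958277, plus strand), the laminin receptor chain of skeletal, heart and smooth muscle, lay at 22.9, 32.6 and 25.3 RPKM at PND2 and at 85.4, 92.3 and 83.9 RPKM at 4 months. It rose 3.24-fold (log2 fold change 1.71 ± 0.14, adjusted p 0.000223). Itga3, a receptor chain for several laminins, lay at 22.2, 22.8 and 19.1 RPKM at PND2 and at 51.7, 41.6 and 38.4 RPKM at 4 months. That was a 2.05-fold rise (log2 fold change 1.03 ± 0.14, adjusted p 0.00158). Itga6 (chr2:71745616-71858416, plus strand), the laminin receptor chain of endothelium and epithelium, lay at 20.2, 17.01 and 21.7 RPKM at PND2 and at 7.92, 11.04 and 8.07 RPKM at 4 months. It fell by 1.13 on the log2 scale (SE 0.17, adjusted p 0.00239). None of the 3 had overlapping ages. Their PND2 levels lay between 17.01 and 32.6 RPKM in every library, and at 4 months the order was Itga7, Itga3 and Itga6 in every library. Itga7 held 39.4 ± 5.08% of their summed RPKM at PND2 and 62.3 ± 2.98% at 4 months, Itga6 went from 29.1 ± 4.96% to 6.42 ± 1.10%, and Itga3 was at 31.5 ± 2.53% and 31.3 ± 3.81%.

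Of the collagen-binding alpha chains, Itga10 rose and Itga2 fell. Itga10, known from cartilage, lay at 10.1, 18.6 and 11.1 RPKM at PND2 and at 31.0, 25.4 and 31.9 RPKM at 4 months. Its ages did not overlap (log2 fold change 1.19 ± 0.23, adjusted p 0.00721), though a per-gene unequal-variance test across all genes did not call it (adjusted p 0.113). Another gene on the same strand, Gm42957, shares 33.5% of its exonic bases, and the exons free of it gave 1.21. Itga2, known from platelets and epithelium, lay at 2.64, 1.25 and 2.08 RPKM at PND2 and at 0.889, 0.817 and 0.476 RPKM at 4 months. It fell by 1.32 on the log2 scale (SE 0.36, adjusted p 0.0269). The Itga2 call was lost without PND2 replicate 1 or 3 (−1.09 and −1.26, adjusted p 0.0734 and 0.0801) and without 4 months replicate 2 or 3 (−1.41 and −1.07, adjusted p 0.0504 and 0.0806), and also under the unequal-variance test. Itga1, the main collagen IV receptor chain of muscle and vessel, was at 24.3 ± 0.886 and 23.96 ± 3.80 RPKM, and Itga11, a fibroblast receptor for fibrillar collagen, was at 6.80 ± 3.00 and 7.13 ± 0.473 RPKM (SD, n = 3). Both overlapped between the ages, with log2 fold changes of −0.03 ± 0.13 and 0.16 ± 0.31.

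The chains that bind the RGD motif of matrix proteins held the second most abundant member at 4 months. Itga8 (ENSMUSG00000026768, mm10, chr2:12106632-12301922, minus strand), the receptor chain for nephronectin, lay at 160, 176 and 169 RPKM at PND2 and at 635, 497 and 469 RPKM at 4 months. It rose 3.17-fold without overlap (log2 fold change 1.65 ± 0.13, adjusted p 0.000215). Itga5, the fibronectin receptor chain, was at 109 ± 8.13 and 162 ± 25.2 RPKM and rose by 0.56 on the log2 scale (SE 0.13, adjusted p 0.0135). Without PND2 replicate 3 the Itga5 call was lost (log2 fold change 0.51, adjusted p 0.0535), as it was under the unequal-variance test (adjusted p 0.0998). Itgav, the alpha V chain, was at 20.0 ± 2.34 and 21.0 ± 1.07 RPKM and overlapped (log2 fold change 0.07 ± 0.11, adjusted p 0.652). Itga2b, the platelet chain alpha IIb, was at 2.16 ± 0.374 and 1.32 ± 0.253 RPKM and did not pass (log2 fold change −0.67 ± 0.25, adjusted p 0.0725). None of the 7 platelet markers tested was called, and that list, led by Pf4, summed to 74.9, 78.8 and 79.8 RPKM at PND2 and to 87.6, 67.4 and 82.7 RPKM at 4 months. Of the 8 platelet markers Gp6 was under 0.1 RPKM in every library, and none was at 0 throughout an age.

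Itga4 and Itga9, related alpha chains that bind VCAM-1, fibronectin or tenascin-C, moved in opposite directions. Itga4 (chr2:79255426-79333123, plus strand), a receptor chain of leukocytes and of developing heart, lay at 11.1, 20.9 and 15.4 RPKM at PND2 and at 4.31, 3.89 and 3.01 RPKM at 4 months. The PND2 mean was 4.23-fold that at 4 months (log2 fold change −2.02 ± 0.25, adjusted p 0.00116). The antisense gene Cerkl shares 8.04% of its exonic bases, all in the last exon, and the exons free of Cerkl gave 4.31, 11.6 and 8.49 RPKM at PND2 and 1.20, 1.33 and 0.610 RPKM at 4 months, a log2 fold change of −2.79. Itga9, whose product binds tenascin-C and the EIIIA segment of fibronectin, was at 73.9 ± 11.2 and 117 ± 11.4 RPKM. It rose by 0.67 on the log2 scale (SE 0.14, adjusted p 0.00881) without overlap, a call lost under the unequal-variance test (adjusted p 0.0813).

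The leukocyte chains were low, and 6 of the 8 entries were called higher at 4 months, against 14.7% of all genes tested. These 6 hold Itgae, which passed the filter on low values only through the 4 months libraries and had to differ, and both entries of Itgam, which share exons. Itga4, also a receptor chain of leukocytes, is not among the 8 and was called lower (log2 fold change −2.02, adjusted p 0.00116). Itgb2, the beta chain common to the leukocyte integrins, lay at 2.94, 2.07 and 2.24 RPKM at PND2 and at 11.4, 10.7 and 11.3 RPKM at 4 months. It rose 4.61-fold (log2 fold change 2.18 ± 0.17, adjusted p 0.0002). Itgax, the CD11c chain of dendritic cells and some macrophages, lay at 0.198, 0.136 and 0.135 RPKM at PND2 and at 3.67, 2.38 and 2.69 RPKM at 4 months. With 37, 20 and 19 reads against 658, 272 and 374, its log2 fold change was 3.54 ± 0.29 (adjusted p 0.000224). Itgam, the CD11b chain of monocytes, macrophages and neutrophils, is counted in 2 overlapping entries that share exons, which are not independent. The entry ENSMUSG00000030786 lay at 2.86, 1.75 and 2.53 RPKM at PND2 and at 7.85, 7.80 and 7.37 RPKM at 4 months (log2 fold change 1.68 ± 0.21, adjusted p 0.00118, but 0.0674 by the unequal-variance test). The entry ENSMUSG00000108596 lay at 1.82, 1.34 and 2.16 RPKM and at 6.00, 5.81 and 5.01 RPKM (log2 fold change 1.63 ± 0.22, adjusted p 0.00167). Itgb7, the beta chain of gut-homing and intraepithelial lymphocytes, was at 0.355, 0.800 and 0.324 RPKM at PND2 and at 3.46, 2.63 and 2.47 RPKM at 4 months (log2 fold change 2.39 ± 0.35, adjusted p 0.00237, but 0.0623 by the unequal-variance test). Itgae, the CD103 chain and an alpha partner of Itgb7, was at 0.0615 ± 0.0316 and 0.725 ± 0.274 RPKM (log2 fold change 2.32 ± 0.38, adjusted p 0.00368). None of the leukocyte entries had overlapping ages, the uncalled ones included, but Itgae had to differ, and 50.0% of all genes tested had none. The uncalled ones were Itgal, the LFA-1 chain, at 0.842 ± 0.0963 and 1.15 ± 0.147 RPKM (log2 fold change 0.41 ± 0.25, adjusted p 0.246) and Itgad, the CD11d chain, at 0.148 ± 0.0249 and 0.352 ± 0.107 RPKM (log2 fold change 0.85 ± 0.34, adjusted p 0.0945, but 0.024 in limma without the trend). Itgad shares 19.7% of its exonic bases with other genes, among them the antisense gene Cox6a2, and its other exons gave a log2 fold change of 1.93. Those exons lay at 0.045, 0.0958 and 0.02 RPKM at PND2 and at 0.759, 0.319 and 0.424 RPKM at 4 months, so they would pass the filter only through the 4 months libraries.

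Macrophage transcripts rose beside these chains. Of 10 macrophage markers 8 were higher at 4 months and none was lower, and the list, led on average by C1qb at PND2 and by C1qa at 4 months, summed to 300, 256 and 307 RPKM at PND2 and to 680, 531 and 636 RPKM at 4 months, with none at 0. T cell markers were near the limit of detection, at 1.90, 1.55 and 2.09 RPKM summed over 8 genes at PND2 and at 3.75, 4.38 and 4.22 RPKM at 4 months. Of these 4 were called higher and Lck was lower, with Lck the most abundant at PND2 and Cd3g at 4 months. Cd3e, at 0 in every PND2 library, and Cd3d passed the filter on low values only through the 4 months libraries and had to differ. Neutrophil markers went the other way. The 6 that were tested, of 9, were lower at 4 months, but Ngp and Camp passed the filter only through the PND2 libraries and had to differ. The list, led by S100a9 at PND2 and by S100a8 at 4 months, summed to 30.1, 27.0 and 33.2 RPKM at PND2 and to 0.989, 1.57 and 0.588 RPKM at 4 months. Ngp was at 0 in every 4 months library and Ly6g in every PND2 library. The part of leukocyte number in the rise of the leukocyte chains was not tested.

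**Figure D5:**
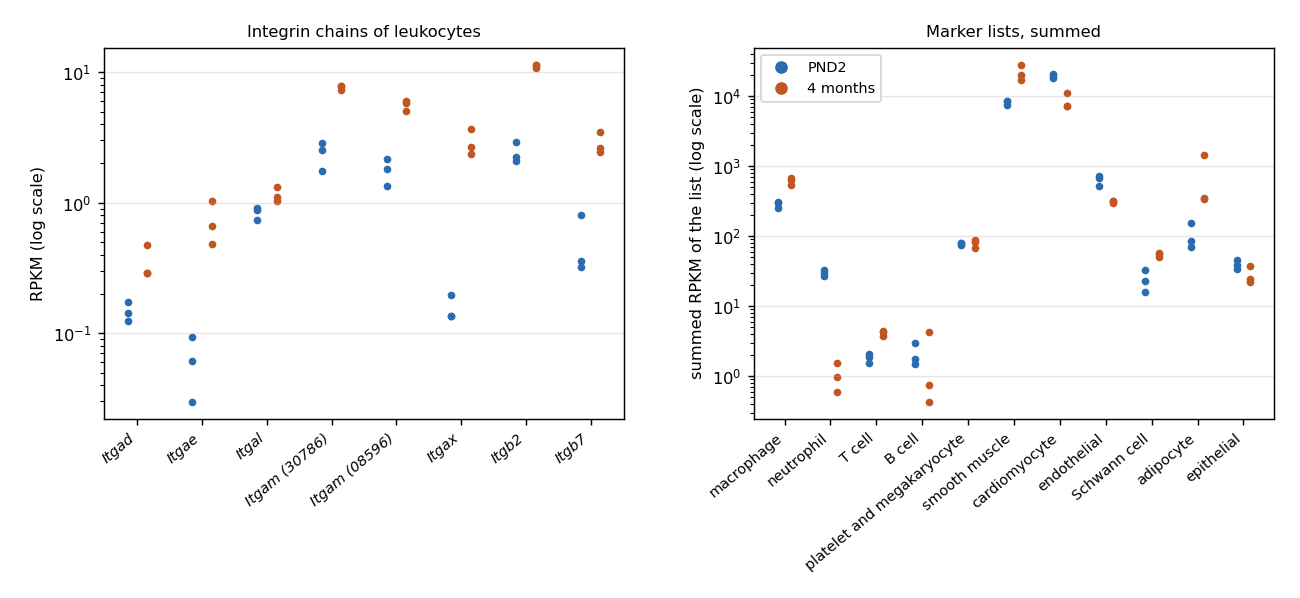
Left, RPKM of each leukocyte integrin entry; right, summed RPKM of the marker list of each of 11 cell types; both on a log scale with 1 point per library (blue, PND2; orange, 4 months). The leukocyte entries lie higher at 4 months without overlap, macrophage and T cell sums lie higher, and the neutrophil sum falls from 27.0 or more to 1.57 or less.

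Markers of the cells that make basement membrane also differed between the ages. Of 9 endothelial markers 8 were lower at 4 months and none was higher, and the list, led by Pecam1, summed to 670, 519 and 735 RPKM at PND2 and to 321, 321 and 293 RPKM at 4 months, with none at 0. Of 8 smooth muscle markers 7 were higher and none was lower, and the list, led by Acta2, summed to 7454, 8556 and 8618 RPKM at PND2 and to 28093, 16987 and 20301 RPKM at 4 months, with none at 0. Lama4 and Itga6, known from endothelium, were lower at 4 months as the endothelial markers were. Itga7 and Lamb2, known from muscle among other tissues, were higher as the smooth muscle markers were. Itga7 is also known from heart muscle, whose markers were lower at 4 months or not called. Lama2 and Itga1, also known from muscle, had log2 fold changes of −0.06 and −0.03 and were not called. The part of these cell types in the levels of the chains was not tested. Among 10 valve interstitial markers 2 were higher and 4 were lower, with sums of 6096, 6572 and 6436 RPKM at PND2 and 8843, 7717 and 9740 RPKM at 4 months. The remaining lists held 7 Schwann cell markers (3 higher), 5 melanocyte markers (2 lower), 7 adipocyte markers (6 higher, of which Cidec, Plin1, Lep and Cfd passed the filter only through the 4 months libraries and had to differ), 5 mesothelial markers (1 lower), 7 erythroid markers (none called of 5 tested) and 5 B cell markers (none called of 3 tested). Of 7 epithelial markers Cdh1 was higher and Krt14 was lower among the 4 tested, and Krt5, Epcam and Esrp1 were near 0 or at 0.

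Partners of laminin in the basement membrane formed a mixed group. Of 16 such genes 9 were higher at 4 months, against 14.7% of all genes tested, 5 were lower, against 21.1%, and 2 did not pass, with a median log2 fold change of 0.46. Among the matrix partners the 4 largest falls were those of the nidogens, agrin and netrin 4. Nid2, a nidogen that bridges laminin and collagen IV, went from 76.9 ± 6.55 to 15.6 ± 1.35 RPKM (log2 fold change −2.30), and Nid1, the other nidogen, from 217 ± 9.65 to 66.0 ± 6.56 RPKM (−1.72). Agrn, a heparan sulfate proteoglycan that binds laminin, had a log2 fold change of −1.25, and Ntn4, a laminin-related netrin, one of −0.75. Among the receptors, Bcam, a receptor for laminin alpha 5, went from 180 ± 10.8 to 424 ± 62.7 RPKM (log2 fold change 1.23), and Sgca and Sgcd, sarcoglycans of the dystrophin complex, had log2 fold changes of 1.77 and 1.29. Dag1, dystroglycan, the receptor at the base of that complex, did not pass (0.04). Lgals3, a galectin of macrophages that binds laminin, rose by 1.47.

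Integrin ligands outside the basement membrane divided as well. Of 22 ligand genes 10 were higher at 4 months, against 14.7% of all genes tested, 7 were lower, against 21.1%, and 5 did not pass, with a median log2 fold change of 0.24. Npnt, nephronectin, the ligand of the Itga8 product, went from 22.8, 23.7 and 16.1 RPKM at PND2 to 310, 280 and 257 RPKM at 4 months (log2 fold change 3.77 ± 0.16). Receptor chain and ligand were thus both higher at 4 months, with no overlap for either. Tnc, tenascin-C, a ligand of the alpha 9 chain, fell from 60.0 ± 14.5 to 9.38 ± 4.23 RPKM (log2 fold change −2.73), while Itga9 rose. Vcam1, the gene of VCAM-1, went the other way from Tnc, from 23.5 ± 3.05 to 44.1 ± 9.69 RPKM (0.89). Fn1, fibronectin, fell from 597 ± 104 to 216 ± 47.3 RPKM (−1.48), while its receptor chain Itga5 rose by 0.56. Spp1, osteopontin, had the largest rise of the list at 4.68, but its 4 months libraries ranged from 29.0 to 192 RPKM. Vtn, vitronectin, and Cyr61, a matricellular ligand, rose by 3.03 and 2.26, Fbn1, fibrillin, fell by 1.11, and Madcam1, the gut-homing ligand, was under 0.3 RPKM at PND2 and at 0 in every library at 4 months, so it passed the filter only through PND2 and had to differ.

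The proteins that work with integrins at adhesions, most of them linkers to actin and signaling inside the cell, formed a mixed group as well. Of 32 such genes, tetraspanins and integrin-like proteins included, 31 were tested, and 15 were called, against 35.8% of all genes tested. Of these genes 9 were higher at 4 months, against 14.7% of all genes tested, 6 were lower, near the 21.1% of all genes tested, and 16 did not pass. The median log2 fold change of −0.02 falls between the members that rose and those that fell. The core linkers Tln1, Ilk, Fermt2 and Vcl had log2 fold changes of 0.45, −0.16, 0.17 and −0.02, of which only that of Tln1 passed. Lims2, a partner of integrin-linked kinase, went from 26.0 ± 4.16 to 175 ± 30.02 RPKM (log2 fold change 2.75). Tns4, a tensin, rose by 2.50 from under 0.4 RPKM, Itgbl1, a secreted protein like the integrin beta chain, by 1.78, and Cd9, a tetraspanin that binds integrins, by 1.49. Itgb1bp2, or melusin, a muscle protein that binds beta 1, fell from 83.2 ± 4.81 to 32.5 ± 6.56 RPKM (log2 fold change −1.37). Tln2, the talin of striated muscle, Ptk2, focal adhesion kinase, and Parvb, a parvin, fell by 1.24, 1.06 and 0.98.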

How the data were processed

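RPKM values per gene and per exon were deposited. The authors checked quality with the FASTX-Toolkit, removed and trimmed reads accordingly, used TopHat 2.1.0 for alignment to mm10 and counted on Ensembl 83 with easyRNASeq. The kit was stranded, but whether strand was used in counting is not given in the sources used here. Whole reads were recovered for 100% of values (tolerance 0.001); summed over genes they were 2.31 to 2.36 times the library totals. Whether the totals count read pairs, or reads were counted at more than 1 gene, was not settled.

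Genes with RPKM of at least 0.1 in 3 libraries were tested on log2(RPKM + 0.1) with limma 3.58.1 (eBayes with trend, Benjamini-Hochberg) in R 4.3.3, and exons with RPKM of at least 1 in 3 libraries with diffSplice. Shares, tables and plots were made with Python 3.11.15, pandas 2.3.3, scipy 1.17.1 and matplotlib 3.10.9. Biological replicates are labelled as such. Members and lists were chosen with earlier results of these data known. A laminin chain enters the counts and sums but is not reported here; the other members are all named. Per-library values are given for members called with a 2-fold change and at least 1 RPKM at the higher age, and up to 4 rises and 4 falls are named per pathway list. Others, such as the core linkers and marker genes, were named after their values were seen.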

Additional observations from a re-analysis of the deposited data

How the results depend on the processing

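The 28 calls among the chains were repeated with other pseudocounts, filters, scalings, tests and libraries left out. A per-gene unequal-variance test called 3408 genes, 2031 of them over 2-fold, and 10 integrin entries as higher; Itga5, Itgb7, Itga2, Itgb3, Lamb3, Itga9, Itga10 and Itgam (ENSMUSG00000030786) then missed 0.05 with their fold changes as before. A pseudocount of 1 left 2712 genes over 2-fold. Lower integrin entries numbered 5, not 3, among protein-coding genes only and with voom on recovered reads, which called 9696 genes; the added ones were Itga2b and Itgb4. Without the trend 17 were higher and 4 lower, with Itgad (adjusted p 0.024) and Itga2b (0.0466) now called, and voom also called Itgad (0.0339). With a stricter exon filter 3 member exons were called, and without any single library 4 to 9. Median scaling moved the median of all genes from −0.14 to −0.02 on the log2 scale and turned the uncalled Lama2, Itgb1 and Itga1 to 0.058, 0.0495 and 0.092. Leaving out a library in turn, called genes ran from 6301 to 8581, those over 2-fold from 3640 to 4062, higher integrins from 14 to 16, lower integrins from 2 to 3 and lower laminins from 5 to 7. Itgb6, Itgae and Lama1 then lost the filter when a library of their higher age was left out. Among uncalled chains that turned sign in this way, Lama5 ran from −0.076 to 0.18, Itga11 from −0.17 to 0.48, Itga1 from −0.125 to 0.10 and Lama2 from −0.14 to 0.011. Shares from the median RPKM over exons changed by −44.5 percentage points for Lamb1, 45.0 for Lamb2, −28.6 for Lamc1 and 1.55, not 2.93, for Lama2. Exons free of overlap were an alternative added after the data were seen; they gave −2.79 for Itga4 and 1.93 for Itgad. The cause of these shifts was not tested. A replicate block called 7167 genes and left 16 higher and 3 lower integrins, 2 higher and 7 lower laminins and 6 exons. Deviations of same-numbered libraries had correlations of 0.04, −0.06 and −0.16, and those of other pairs ran from −0.18 to 0.23. With 3 libraries per age these correlations cannot show whether the numbers pair libraries.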
